A study of Mus musculus with 8 samples.

Results

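Genes that mark white and brown adipocytes were read in 8 mouse melanomas on Illumina bead arrays, which measure the mRNA of a gene as the brightness of beads that carry a probe for it. The set holds 10 genes: Adipoq, Cfd, Lpl, Fabp4, Plin1, Cidec, Cidea, Ucp1, Mrap and Pparg. All probes annotated to these genes were taken from the table of non-normalized intensities, with the detection p that the deposited table gives for each probe on each array. There were 11 such probes of 25697 on the array, for 9 genes. No probe carries the symbol Cfd in the annotation used here, so this gene was not analysed. A probe was called detected on an array where its detection p was under 0.05, and 7 probes, for 7 genes, were detected in at least 1 tumour, among 10461 genes in the whole series. The members were chosen by their intensities in these tumours, in the main those of resistant tumour 1, so the same intensities are a description, and where a fit over all genes is read for them their calls are only counted.

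All tumours came from FVB/n mice of the genotype DCT-TVA;Ink4a/Arf lox/lox, in which the Dct promoter directs the avian virus receptor TVA to melanocytes. Newborns were injected under the skin with virus-producing cells, and the viruses carried a Tet-off activator and TRE-NRASQ61R-IRES-Cre, so that infected melanocytes made the Q61R form of NRAS, and Cre deleted p16Ink4a and p19Arf. In the 7 resistant tumours doxycycline food, begun at a tumour volume of 1000 mm3, turned NRAS and Cre off, and the tumours first shrank and then grew again. The 1 control tumour kept NRAS on, and its description names NRAS-IRES-Cre without the Tet-off and TRE elements named for the resistant tumours. Ages at harvest are not stated in the labels, and the labels do not say that each tumour came from its own mouse, so that a p-value measures only the spread between these samples.

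Each tumour was read on 1 array, with 11821 to 12851 probes detected, so precision is limited by how few arrays there are. Array medians before normalization lay between 86.3 and 94.8. Values below are log2 intensities after background correction and quantile normalization, and the lowest signal of any detected probe lay between 5.12 and 5.36 on this scale, depending on the array. The mouse Nras probe read 11.66 to 12.23 in the 8 tumours, and it is not known to read the viral transgene, so it does not check the labels. Of 8 melanocyte markers, 7 had a probe. Those of Dct, Tyr, Tyrp1, Mlana and Mitf were not detected in any tumour. Of the 2 Pmel probes 1 was detected on 2 arrays and the other on 1, and 1 of 4 Slc45a2 probes was detected on 7 arrays, at 5.26 to 5.85 over the 8 tumours.

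White adipocytes store triglyceride in 1 large lipid droplet and release fatty acids and hormones, while brown adipocytes hold many small droplets and burn fatty acids for heat. PPARG, a nuclear receptor that binds DNA together with RXR, and the C/EBP factors drive the formation of both kinds and act on many of the genes described here. Fat lies below the skin of the mouse beside a thin sheet of skeletal muscle, and both can border a tumour that grows under the skin.

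The promoters of the members are shown as a description. That 7 members were highest in the same tumour restates how they were chosen. RefSeq promoter windows of assembly GRCm38.p6 run from 250 bases before a gene's start to 50 after it. Any member window on 1 of the chromosomes was left out by rule. Windows were used for 6 of the 10 members, 9 in all. They were searched on both strands for AGGTCA (the core motif of PPARG and RXR and of other nuclear receptors), for the direct repeat of that motif with 1 base between its copies, for the C/EBP motif TTGCNNAA and for TATAAA. Of all 32851 windows, 16.3% held AGGTCA, 0.0396% held the repeat, 10.8% held TTGCNNAA and 13.6% held TATAAA. Of the 9 member windows 6 held at least 1 of these motifs: 3 held AGGTCA, 3 held TTGCNNAA and 1 held TATAAA. Of the windows of Cidec and Pparg, those shown were picked after the search because they hold TTGCNNAA. The other Cidec window and the Cfd window held no motif, the other 2 Pparg windows held AGGTCA, and the Plin1 window held TTGCNNAA. None of these motifs was found in the Adipoq window. The Ucp1 window holds AGGTCA, which begins 14 bases before the start. The Cidec window shown holds TTGCNNAA 198 bases before the start, and the Pparg window shown holds it 215 bases before the start and again, on the other strand, 16 bases before it. None of the 9 member windows held the repeat. A match is a description of these letters and not evidence of binding. Each window is written 5′ to 3′ along its gene in lower case, with the motif matches in capitals.
Adipoq, chr16:23146286-23146585, plus strand: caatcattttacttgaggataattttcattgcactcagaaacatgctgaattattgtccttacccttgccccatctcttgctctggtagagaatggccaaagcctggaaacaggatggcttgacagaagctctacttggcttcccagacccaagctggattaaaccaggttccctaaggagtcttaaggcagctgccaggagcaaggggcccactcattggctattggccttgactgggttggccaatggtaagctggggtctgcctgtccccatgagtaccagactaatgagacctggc
Ucp1, chr8:83290098-83290397, plus strand: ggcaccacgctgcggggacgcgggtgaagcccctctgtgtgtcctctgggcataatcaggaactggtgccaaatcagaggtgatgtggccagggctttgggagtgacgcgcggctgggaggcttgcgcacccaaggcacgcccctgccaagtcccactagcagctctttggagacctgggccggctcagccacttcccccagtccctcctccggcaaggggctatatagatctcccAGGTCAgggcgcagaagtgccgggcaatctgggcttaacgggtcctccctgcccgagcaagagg
Cidec, chr6:113434715-113435014, minus strand: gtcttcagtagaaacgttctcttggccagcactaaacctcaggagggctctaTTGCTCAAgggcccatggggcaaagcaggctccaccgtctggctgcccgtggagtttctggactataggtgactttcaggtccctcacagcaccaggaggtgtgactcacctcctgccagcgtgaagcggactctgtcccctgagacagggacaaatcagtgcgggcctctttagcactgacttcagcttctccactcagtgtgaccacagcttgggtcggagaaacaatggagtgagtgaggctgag
Pparg, chr6:115421816-115422115, plus strand: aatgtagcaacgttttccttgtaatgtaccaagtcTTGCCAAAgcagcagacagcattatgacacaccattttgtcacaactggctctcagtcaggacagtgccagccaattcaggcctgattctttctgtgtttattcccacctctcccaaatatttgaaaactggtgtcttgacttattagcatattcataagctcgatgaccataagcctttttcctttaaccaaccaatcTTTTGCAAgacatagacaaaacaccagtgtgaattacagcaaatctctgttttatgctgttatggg

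Adipoq encodes adiponectin, the hormone that adipocytes release, and was the member detected in the most tumours among those absent from the control. Resistant tumour 1 had a value of 9.12, tumour 3 followed at 7.96, tumour 5 at 6.52 and tumour 4 at 5.66. In the control (4.71, detection p of 0.279) and in tumours 2, 6 and 7 (4.79, 4.78 and 4.84, detection p of 0.207, 0.183 and 0.195) it was not detected. The 4 tumours with a signal therefore stood above the control and the other 3. As raw intensity, tumours 1 and 3 read 571.5 and 282.3, against 79.8 in the control and 77.9 to 79.8 in the tumours without a signal. Relative to the lowest signal the control array could detect, Adipoq was at least 14.5-fold higher in tumour 1, 6.50-fold in tumour 3, 2.40-fold in tumour 5 and 1.32-fold in tumour 4. Here and below, "at least" means that the side without a signal was set to that lowest detected level. The resistant mean was 6.24 ± 1.72 (SD, n = 7). In bulk tumours fewer cells of a type and less RNA per cell cannot be told apart, and this holds for every value given here.

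**Figure D1:**
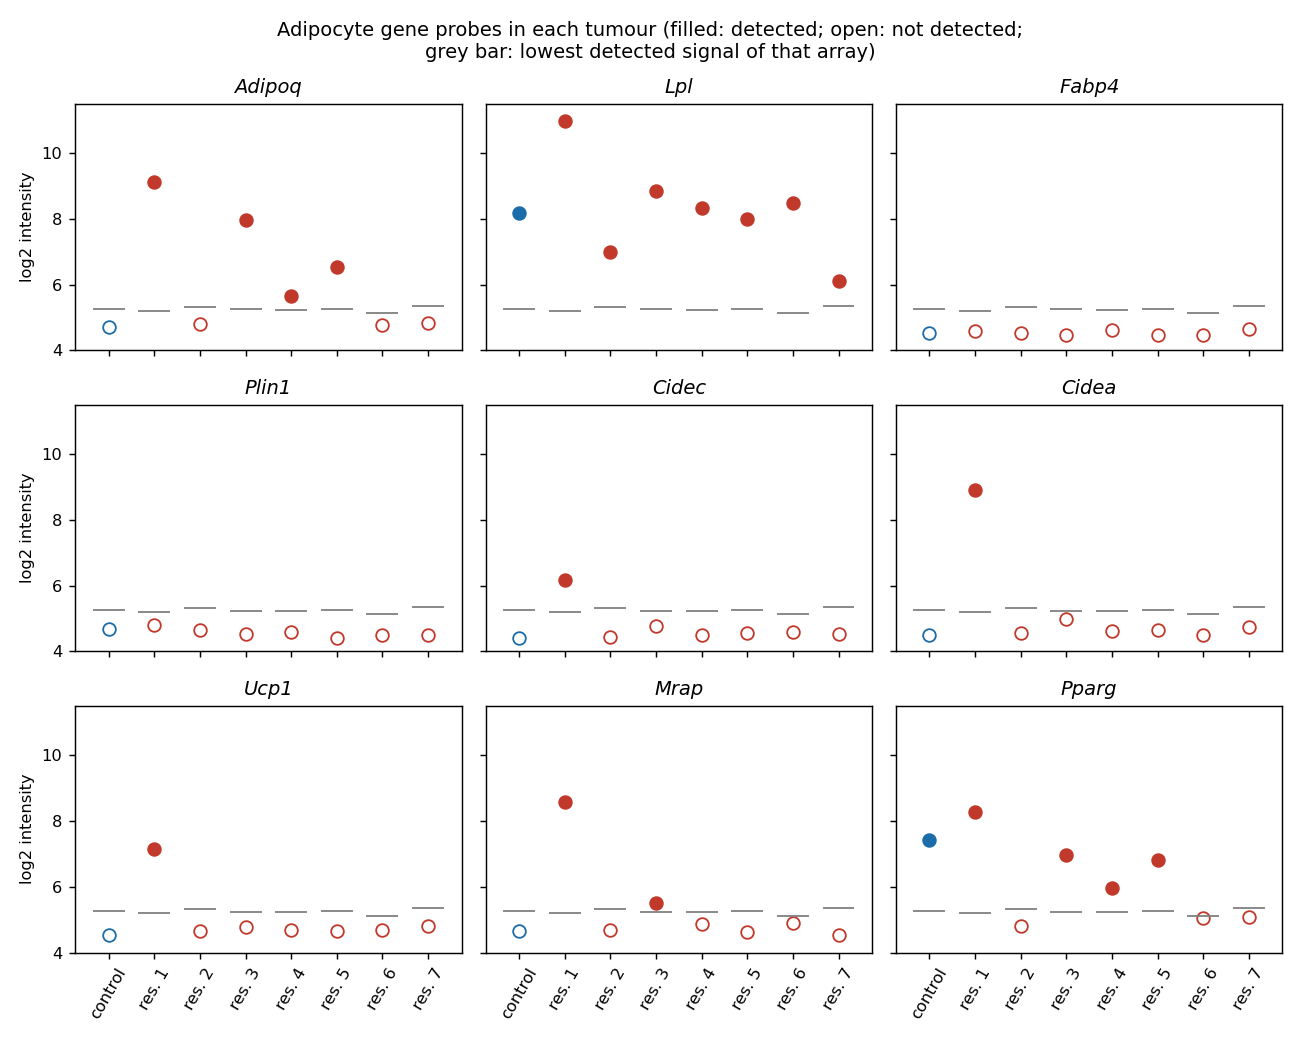
Log2 intensity (y axis) of the probe used for each of 9 adipocyte genes in the control (blue) and the 7 resistant tumours (red), 1 point per array. Filled points were detected, open points were not, and the grey bar is the lowest detected signal of that array; tumour 1 is the highest point of all 7 genes that were detected anywhere, while Fabp4 and Plin1 stay below the bar in every tumour.

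Among the genes of uptake and storage, Lpl encodes lipoprotein lipase, which frees fatty acids from circulating triglyceride and is also made by muscle and macrophages. It was the only member detected in all 8 tumours. It read 8.18 in the control, and 10.98, 7.00, 8.83, 8.32, 8.01, 8.49 and 6.11 in resistant tumours 1 to 7. Tumour 1 was 6.96-fold above the control and 4.43-fold above tumour 3, the next in order, while tumours 2 and 7 were 2.27-fold and 4.21-fold below the control. The resistant mean, 8.25 ± 1.53 (SD, n = 7), lay beside the control, with 4 tumours above it and 3 below.

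Fabp4, the fatty acid carrier of the adipocyte cytoplasm, and Plin1, which coats its lipid droplet, define the cell type as much as Adipoq does. Neither was detected in any tumour. The raw intensity of the Fabp4 probe lay between 61.3 and 74.2 over the 8 arrays, with detection p from 0.405 to 0.873. That of the Plin1 probe lay between 58 and 80.7, with detection p from 0.178 to 0.966. In tumour 1, where the 7 measured members were at their highest, Fabp4 read 4.58 and Plin1 4.82, both below the lowest detected signal of that array, 5.20. Of the defining markers of the adipocyte, Adipoq was thus detected in 4 tumours and Fabp4 and Plin1 in none. Whether these 2 probes read their transcripts was not tested.

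Cidec and Cidea encode proteins of the lipid droplet surface, Cidec promoting the large droplet of white fat and Cidea being abundant in mouse brown fat. Both were detected in tumour 1 alone. Cidea read 8.90 there (detection p of 0, raw intensity 502), 5.00 in tumour 3 (detection p of 0.113) and 4.50 to 4.74 in the other 5 resistant tumours, with 4.50 in the control. Tumour 1 was at least 12.5-fold above the control. Cidec read 6.19 in tumour 1 (raw intensity 129.6), 4.76 in tumour 3 and 4.44 to 4.58 in the other 5, with 4.42 in the control, and tumour 1 was at least 1.90-fold above the control. For both genes tumour 1 stood apart and the other resistant tumours and the control lay below the lowest detected signal.

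Ucp1, the uncoupling protein with which brown adipocytes make heat, followed the same course. It read 7.15 in tumour 1 (detection p of 0, raw intensity 194.9), 4.64 to 4.82 in the other 6 resistant tumours (detection p from 0.209 to 0.395) and 4.54 in the control (detection p of 0.635). Tumour 1 was at least 3.71-fold above the control. Mrap encodes the accessory protein that brings the ACTH receptor to the cell surface, and it is expressed in adrenal cortex and fat. It read 8.56 in tumour 1 and 5.52 in tumour 3, at least 9.88-fold and 1.20-fold above the control, and 4.54 to 4.89 in the other 5, where it was not detected. The control read 4.64 (detection p of 0.377). Tumour 1 was thus the highest for Mrap, and tumour 3, the next, was 8.25-fold lower and just past the detection threshold (detection p of 0.0238).

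Pparg, the nuclear receptor that drives adipocyte formation and is also present in macrophages, was, with Lpl, 1 of 2 members detected in the control. It read 7.43 there, and it was detected in tumours 1, 3, 4 and 5 at 8.28, 6.97, 5.95 and 6.81. In tumours 2, 6 and 7 it was not detected (4.80, 5.04 and 5.08, detection p of 0.199, 0.0677 and 0.104). Tumour 1 was 1.80-fold above the control, tumours 3, 5 and 4 were 1.38-fold, 1.53-fold and 2.78-fold below it, and tumours 2, 6 and 7 at least 4.34-fold, 4.93-fold and 4.18-fold below it. The 4 resistant tumours with Pparg are the 4 with Adipoq. The resistant mean was 6.13 ± 1.28 (SD, n = 7). The other 2 Pparg probes were not detected on any array (detection p from 0.449 to 0.970 and from 0.382 to 0.917), so the values rest on 1 of 3 probes.

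**Figure D2:**
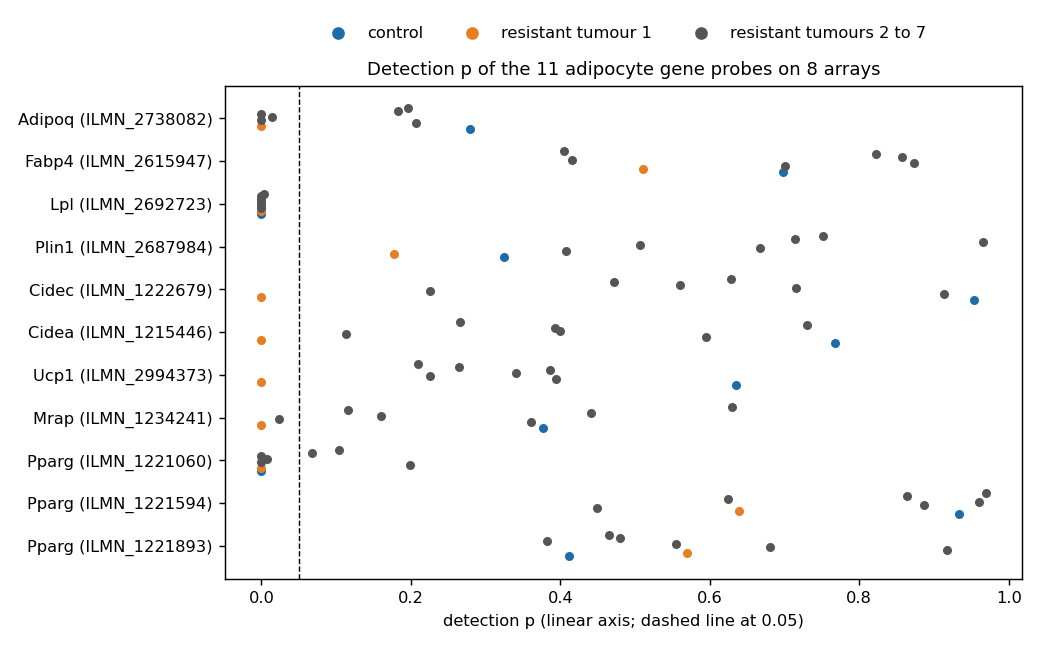
Detection p (x axis, linear) of the 11 probes on the 8 arrays, 1 row per probe, with the control in blue, resistant tumour 1 in orange and resistant tumours 2 to 7 in grey; points are spread vertically within a row to keep them apart, and the dashed line marks 0.05. Tumour 1 is at 0 for 7 probes, and all 8 arrays lie right of the line for Fabp4, Plin1 and the other 2 Pparg probes.

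Near the detection threshold, the values just inside it were Mrap in tumour 3 (0.0238), Adipoq in tumour 4 (0.0138) and Pparg in tumour 4 (0.00752). Those just outside it were Pparg in tumours 6 and 7 (0.0677 and 0.104) and Cidea in tumour 3 (0.113). With 1 array per tumour, the step between neighbouring tumours in these orders has no error of its own. For Cidec, Cidea, Ucp1 and Mrap the order below tumour 1, or below tumour 3 for Mrap, is among undetected values and carries no information.

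Across tumours, 7 of the 7 measured members were detected in tumour 1, 4 in tumour 3, 3 each in tumours 4 and 5, 2 in the control and 1 each in tumours 2, 6 and 7. The mean of the members, each centred on its own mean over the 8 tumours, was 2.62 in tumour 1 and 0.43 in tumour 3. In the control it was -0.34, and in tumours 2, 4, 5, 6 and 7 it was -0.84, -0.31, -0.14, -0.55 and -0.87. Tumour 1 therefore stood far above the others, and tumour 3 came next. In tumours 2, 6 and 7 only Lpl was detected, so apart from Lpl their means hold undetected values, which have no order. In tumour 1, 6 of the 7 were at least 2-fold above the control, as were 5.13% of all genes tested. In tumours 3 and 5 this held for 1 member each, Adipoq, against 7.7% and 6.59% of all genes, and in tumours 2, 4, 6 and 7 for 0, against 6.14%, 6.68%, 11.6% and 5.02%. The members were chosen for tumour 1, so these counts describe the choice.

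The range of Lpl over the 8 tumours was 4.87, against a median of 1.08 over all genes tested. For the other 6 measured members the lowest value was undetected, so no range is given. The size of the step to tumour 1 depended on how background was treated. The measured signal of tumour 1 minus the median of the other tumours was 4.28 for Adipoq, 4.26 for Cidea, 3.89 for Mrap, 2.48 for Ucp1 and 1.64 for Cidec. Without background correction it was 2.91, 2.87, 2.54, 1.41 and 0.93. That median was undetected for these 5 genes, so the differences are signal above background and no fold changes, for which the bounds above stand. For Lpl, which was bright in all tumours, it was 2.80 and at least 2.56 under every alternative run. For Pparg it was 2.33, and 0.82 with the mean of its 3 probes.

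The labelled comparison, resistant against control, gave no call among the members. By limma with Benjamini-Hochberg adjustment over 10461 genes, 0 of 7 measured members passed at an adjusted p under 0.05 (smallest adjusted p = 0.826, for Pparg), and 0 had an unadjusted p under 0.05. Of all genes tested, 0.22% passed, 0.00956% higher and 0.21% lower. Adipoq, Cidec, Cidea and Ucp1 were above the control in all 7 resistant tumours, as were 13.3% of all genes, but the control was undetected for each of them and so were 3 to 6 of the 7 resistant tumours. No measured member was below the control in all 7, as 17% of all genes were. The median difference over the 9 genes with a probe was 0.38, and 0.15 without tumour 1. Both are the value of Cidec, detected in tumour 1 alone, so they rest mostly on undetected signals. Over all genes tested the median was -0.02. With undetected genes kept, as Fabp4 and Plin1 are among the 9, it was -2.8e-05.

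Genes of neighbouring tissues were read beside the members. Of 18 skeletal muscle markers 16 were measured, and their summed linear intensity was 725 in the control and 53685, 10759, 973, 583, 690, 3152 and 2688 in resistant tumours 1 to 7. All 16 were detected in tumours 1 and 2, 12 and 13 in tumours 6 and 7, 7 in the control and 5, 3 and 6 in tumours 3, 4 and 5. The muscle actin gene Acta1 had its peak in tumour 1 (14.15), then tumour 2 (12.17), with 5.99 in the control and no signal in tumours 3 and 4. Tumour 1 was thus highest both in muscle markers and in the adipocyte members. The other tumours did not share this: tumour 2, second in muscle markers, had Adipoq and Pparg undetected, and tumours 3, 4 and 5, which had Adipoq, had sums of 583 to 973 in muscle markers, beside 725 in the control. The part of adjacent muscle and fat in these values was not tested.

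**Figure D3:**
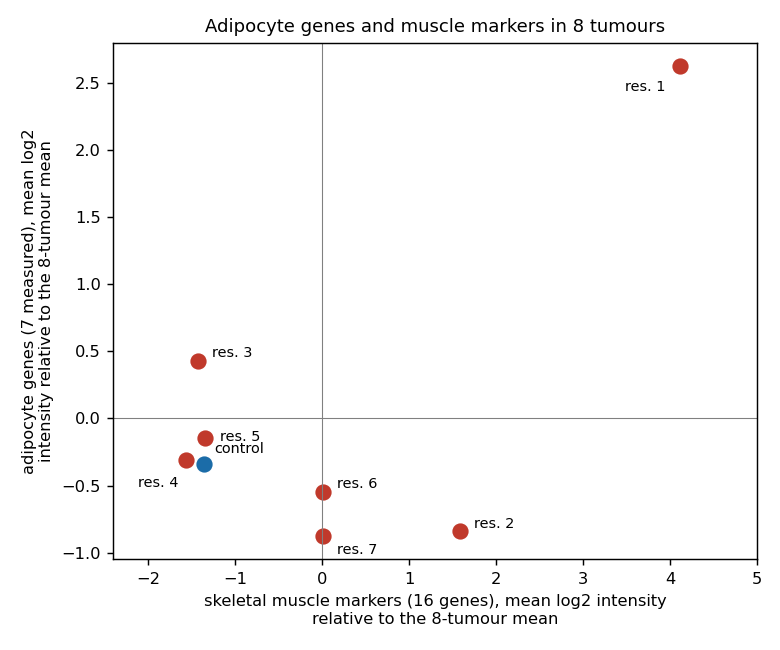
Mean log2 intensity of the 7 measured adipocyte genes (y axis) against that of 16 skeletal muscle markers (x axis), each gene centred on its mean over the 8 tumours, 1 point per tumour, control in blue and resistant tumours in red. Tumour 1 lies alone at 4.11 and 2.62, tumour 2 at 1.58 and -0.84, and tumour 3 at -1.43 and 0.43. The means include undetected values, and of the 7 adipocyte genes only Lpl was detected in tumour 2.

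Markers of other cell types were summed in the same way. The 12 measured macrophage markers of 16 listed summed to 11733 in the control and to 16554 to 26362 in the resistant tumours. By sum tumour 1 was highest and tumour 3 lowest among the resistant tumours. By the mean of centred log2 values tumour 6 was highest, at 0.33, with 0.28 in tumour 1. Macrophages also express Lpl and Pparg, and their part in those 2 genes was not tested. The 11 measured endothelial markers of 12 listed summed to 10214 in the control and to 5568 to 9444 in the resistant tumours, with 9168 in tumour 1. Of 11 keratinocyte markers only Krt10 and Trp63 were measured, at a sum of 284 in tumour 1 and 417 to 810 elsewhere, and Krt5, Krt14, Krt1, Sfn, Krt15 and Ivl had probes that were not detected. Of 9 sebocyte markers 3 were measured, at 891 in tumour 1, 940 in the control, 2911 in tumour 6 and 171 to 428 in the other 5, while Awat2, Far2, Krt79 and Scd3 were not detected. Of 11 markers of mammary epithelium 5 were measured, at 11921 in tumour 1, 1883 in the control and 3727 to 19281 in the other 6. By this sum tumours 7, 2 and 4 lay above tumour 1. By the mean of centred log2 values tumour 1 was the highest of the 8, at 1.35, with 0.64 in tumour 7, the next. Csn3 and Glycam1 were not detected in tumour 1, so its mean includes undetected values. Btn1a1, a milk fat globule protein, read 11.93 in tumour 1, 12.56 in tumour 6 and 6.34 in the control. The milk protein genes Csn2, Wap and Lalba and the regulator Elf5 were not detected, and the part of mammary epithelium in the members was not tested.

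A further 10 lists cover what an adipocyte does beyond the members, with 134 genes, of which 112 had a probe and 82 were measured. Between resistant tumours and control, 0 of these rose and 1, Zic1, fell by limma at an adjusted p under 0.05, with 6 at an unadjusted p under 0.05, as had 859 of 10461 over all genes. All 7 resistant tumours were above the control for 7 of the 82 genes and below it for 10, undetected values included, beside 13.3% and 17% of all genes, and the median difference was -0.0038. Zic1 encodes a zinc finger transcription factor that marks classical brown fat cells in the mouse and patterns the nervous system. It read 6.35 in the control and was not detected in any resistant tumour (4.51 ± 0.07, SD, n = 7), at least 2.14-fold lower than in the control (limma adjusted p = 0.0143). It passed the detection filter through the control alone, so this p rests on the spread of 7 undetected values. The call was lost without background correction, with the deposited normalized values and without tumour 2. Dropping a resistant tumour from the fit only removes an undetected value of Zic1. Such fits therefore cannot test the call, and the other settings share this limit.

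Of 18 genes of the lipid droplet and of lipolysis 17 were measured, with 0 passed in either direction and a median difference of 0.27. Plin4, a droplet coat protein of white adipocytes that muscle also makes, read 9.22, 7.65, 5.34 and 5.21 in tumours 1, 3, 4 and 6, and was not detected in the control (4.53) or in tumours 2, 5 and 7. It was at least 15.6-fold above the control in tumour 1 and 5.26-fold in tumour 3. Tumours 1 and 3 also came first for Adipoq, but tumour 5 had Adipoq without Plin4 and tumour 6 had Plin4 without Adipoq. Plin2 and Plin3, which coat droplets in most cells, were detected in all 8 tumours, at 9.08 in the control and 7.96 to 10.07 in the resistant tumours for Plin2, and at 9.31 and 9.11 to 9.67 for Plin3. Plin5, a coat protein of tissues that burn fat such as muscle and heart, was detected at 6.75 in tumour 1 and 5.58 in tumour 2. Tumours 1 and 2 also had the highest sums of muscle markers, but the Plin5 signal of tumour 2 was near the threshold (detection p of 0.0263). Tumours 6 and 7, with 12 and 13 muscle markers detected, had no Plin5 signal. Plin4 was high in tumour 3, where the muscle markers were low. The part of muscle in Plin4 and Plin5 was not tested. G0s2 exceeded the control in each of the 7 tumours with a signal in all 8, and Fitm2 was below it in each. Cavin1 was undetected in the control (5.00) and detected in all 7 resistant tumours, at 6.07 to 7.72. Beyond Plin4 and Plin5, Pnpla2 (11.56), Mgll (8.25), Adig (7.06) and Lipe (5.54) were highest in tumour 1, and the remaining measured genes of this list were not.

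Among secreted proteins, 4 of 8 were measured and 0 passed (median difference -0.04). Leptin, Lep, the other classical hormone of white fat, was detected in tumours 3, 7, 1 and 2 at 5.99, 5.60, 5.50 and 5.45, all close to the lowest detected signal, and not in the control or tumours 4, 5 and 6. Tumour 7 and tumour 2 thus had a leptin signal with Adipoq undetected. Angptl4, an inhibitor of lipoprotein lipase, read 12.33 in the control and 13.14, 10.18, 8.98, 11.70, 11.32, 7.89 and 10.43 in tumours 1 to 7. Nampt, an enzyme of NAD synthesis that fat releases, read 7.44 in the control and 6.60 to 8.10 in the resistant tumours. Sfrp5, a secreted Wnt antagonist, was detected in tumour 7 alone, at 5.44. Retn, Rbp4, Agt and Apln had probes that were not detected in any tumour.

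Of 17 genes of fatty acid uptake and triglyceride synthesis 13 were measured, 0 passed, and the median difference was -0.05. Cd36, Pck1 and Aqp7, a fatty acid receptor, an enzyme of glycerol supply and a glycerol channel of the adipocyte, were not detected in any tumour. Gpihbp1, which carries lipoprotein lipase to the capillary surface, read 8.56 in the control and 8.41 to 9.96 in the resistant tumours, and Lmf1, which folds the lipase, 8.74 and 8.51 to 8.93. Slc27a1, a fatty acid transporter, was above the control (6.85) in all 7 tumours, at 7.61 to 9.73. Fabp5, the fatty acid carrier of skin and macrophages, read 8.42 in the control, 8.31 in tumour 1 and 10.62 in tumour 6, and was not detected in tumours 2, 3 and 7. Neither Lpl partner was highest in tumour 1, where Lpl itself peaked. Elsewhere in this list Gpd1, Gpat3, Agpat2, Lpin1 and Dgat2 were highest in tumour 1, and the remaining measured genes were not.

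The 14 measured genes of lipogenesis and glucose uptake, of 15 listed, gave 0 calls and a median difference of -0.32. Acaca, Acly, Elovl6 and Fads1 were below the control in all 7 tumours. Acaca, which makes malonyl-CoA, read 10.67 in the control and 9.90 to 10.44 in the resistant tumours, and Acly, which makes cytosolic acetyl-CoA, read 12.51 and 11.76 to 12.24. Fasn, fatty acid synthase, read 5.48 in the control and 5.05 to 5.88 in the resistant tumours, and Scd1, a desaturase, read 10.74 and 8.64 to 11.04. Of Acaca, Acly, Fasn and Scd1, none was highest in tumour 1, with Fasn at 5.57 and Scd1 at 10.92 there. Elsewhere in this list Thrsp (6.75) and Slc2a4 (5.52) were highest in tumour 1, and the remaining genes were not.

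Of 14 adipogenic transcription factors 9 were measured, 0 passed, and the median difference was -0.39. Cebpa, partner of PPARG in adipocyte formation, was not detected in the control and read 5.83, 5.98, 5.65 and 6.54 in tumours 1, 3, 4 and 6, where it was detected. In tumours 2, 5 and 7 it was undetected, as in the control, and has no order there. Klf5 was below the control in all 7 tumours. Cebpb read 12.34 in the control and 10.91 to 12.50 in the resistant tumours, and Rxra, the partner of PPARG on DNA, 5.74 and 5.39 to 6.43. Klf15 was detected in tumours 6 and 7 alone, at 5.64 and 5.83. Tumour 1 was highest for none of Cebpa, Cebpb, Rxra and Klf15. Elsewhere in this list only Nr1h3 was highest in tumour 1, at 10.39, with 9.59 in the control.

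Of 26 thermogenic genes 22 had a probe and 12 were measured. In the resistant against control comparison Zic1 was the 1 call, and the median difference was 0.02. The regulators Ppargc1a and Prdm16, the thyroid hormone activator Dio2 and the elongase Elovl3, all typical of mouse brown fat, were not detected in any tumour, tumour 1 with its Ucp1 and Cidea signal included. Cox8b, a cytochrome oxidase subunit of brown fat and striated muscle, read 10.62, 7.01, 6.38 and 6.11 in tumours 1, 2, 3 and 6, at least 41.0-fold, 3.36-fold, 2.18-fold and 1.81-fold above the control. Cox7a1, another such subunit, read 8.70 in tumour 1, 6.92 in the control and 5.54 to 7.48 in the other 6. Ppargc1b, a coactivator of mitochondrial genes, read 7.09 in tumour 1, 7.07 in tumour 6, 6.29 in the control and 5.19 to 5.69 in the other 5. Both cytochrome oxidase genes are also muscle genes, and the share of muscle in their values was not tested.

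The remaining lists were thinly measured. Of 10 genes of insulin and catecholamine response, Irs1 and Irs2 alone were measured, and Irs2 was below the control (8.53) in all 7 tumours, at 6.20 to 8.33. In the melanocortin list, to which the partners of MRAP belong, Mc2r, the ACTH receptor, was detected in tumour 3 alone, at 5.28, and Mc1r, Mc3r, Mc4r, Mc5r and Pomc were not detected. In tumour 1, where Mrap peaked, Mc2r read 4.96 and was not detected. In the alternative complement list, the pathway that the Cfd protein activates, 1 of 6 genes was measured, Cfb, at 7.90 in the control, 8.80 in tumour 1 and 5.25 to 6.44 in the other 6. Among 11 adipose progenitor genes 9 were measured and 0 passed. Cd34, a surface protein of progenitors and vessels, read 8.55 in the control, 7.19 in tumour 1, 6.54 in tumour 6 and 8.92 to 9.50 in the other 5. Pdgfrb, a receptor of mural cells and progenitors, read 8.16 in the control and 6.98 to 9.38 in the resistant tumours. In tumour 1, 2 of the 9 were at least 2-fold above the control, as were 5.13% of all genes. These were Pi16 (14.7-fold) and Dlk1 (3.02-fold), while 1, Cd34, was at least 2-fold below it.

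**Figure D4:**
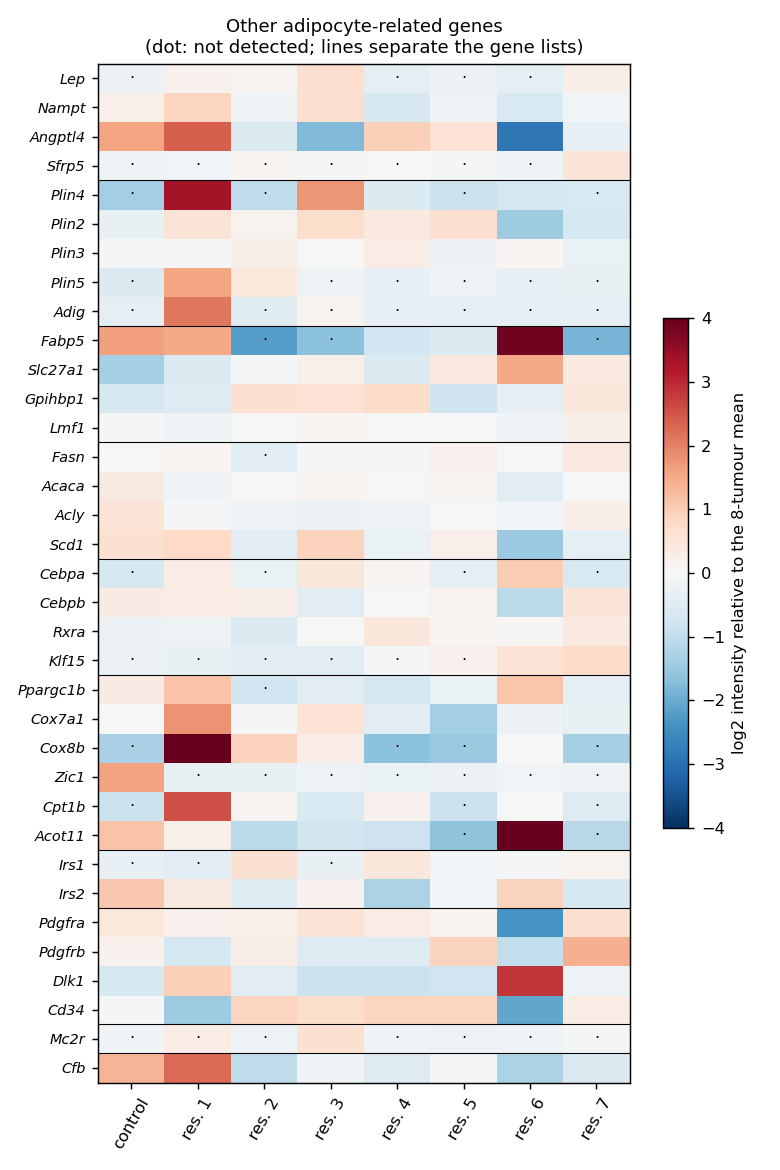
Heat map of the named genes of the 10 other adipocyte-related lists (rows, lists separated by lines) in the 8 tumours (columns). Colour is log2 intensity relative to the gene's mean over the 8 tumours, from -4 (blue) to 4 (red), and a dot marks a tumour in which the probe was not detected; Plin4, Adig, Cox8b and Cpt1b are reddest in tumour 1, and Acot11, Dlk1 and Fabp5 in tumour 6.

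The other lists were chosen with earlier results of these data known, so counts over them are a description. Some of their genes passed the detection filter through 1 array alone, among them Zic1 through the control and Adig through tumour 1. A fit with every tumour in turn against all others, 1 array against 7, was read for the 82 other adipocyte-related genes. Tumour 1 differed in 2 of them (2.44%, against 0.449% of all genes), tumour 6 in 3 (3.66%, against 5.29%), the control in Zic1 (1.22%, against 0.22%), and tumours 2, 3, 4, 5 and 7 in 0. At an unadjusted p under 0.05 the counts were 16 for tumour 1, 21 for tumour 6, 6 for the control, 3 each for tumours 3, 4 and 5, 2 for tumour 7 and 0 for tumour 2. Over all 10461 genes the corresponding counts were 646, 2086, 859, 332, 237, 275, 398 and 69. By adjusted p, over all genes 0%, 0.0382%, 0.0574%, 0.0669% and 0% passed in tumours 2, 3, 4, 5 and 7.

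The 2 genes of tumour 1 were both higher, as were 0.44% of all genes. Adig, or adipogenin, a small membrane protein of adipocytes, read 7.06 in tumour 1 and had no signal in the remaining 7 (4.47 to 5.08), at least 3.48-fold higher (limma adjusted p = 0.00695). It passed the detection filter through tumour 1 alone, so this p also rests on the spread of undetected values. Leaving out another resistant tumour only drops an undetected value, so such fits cannot test the call, and other settings share this limit. The part of Adig in the count of 2 for tumour 1 is limited in the same way. Cpt1b, the carnitine palmitoyltransferase of muscle and brown fat, read 8.44 in tumour 1 and 5.49 ± 0.45 (SD, n = 7) in the others, 4 of which had a signal, with a difference of 2.95 (SE 0.45, limma adjusted p = 0.0359). This call was lost without any detection filter (adjusted p = 0.0566) and without tumour 3, 4, 5 or 7 (0.0722, 0.0503, 0.0768 and 0.0982), and another Cpt1b probe was detected in tumour 1 alone, at 6.60. In the same tumour the summed muscle markers were 53685, and the part of muscle in the Cpt1b value was not tested.

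Of the 3 genes of tumour 6, 1 fell and 2 rose. Pdgfra, a receptor of fibroblasts and adipose progenitors, fell to 9.79 from 12.49 ± 0.19 (SD, n = 7) in the others, 6.52-fold, by a difference of -2.70 (SE 0.24, limma adjusted p = 0.000406). Dlk1, which holds preadipocytes from maturing, was 9.73-fold higher at 9.04 against 5.76 ± 0.65 (SD, n = 7), with a limma adjusted p of 0.018. Acot11, a thioesterase of brown fat, read 10.43 against 5.89 ± 0.94 (SD, n = 7), with a signal in 5 of the others and a limma adjusted p of 0.0193. All 3 calls held with each other resistant tumour left out in turn. Over the whole array tumour 6 had the most genes apart, 553 of 10461.

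The genes whose pattern over the 8 tumours was most like the mean of the members were ranked among 5720 genes with a range of at least 1. The likeness is Pearson's correlation over 8 tumours that share these arrays with the members, and is given as a description. The mean of the members includes their undetected values. Adig (r = 0.976) and Ces1d (0.976), a lipase and carboxylesterase of fat and liver, came first, followed by Orm1, an acute phase plasma protein (0.972), Shtn1 (0.968), Lrmp (0.965), Fsd2 (0.960), Slc17a6 (0.957), Apoc1, an apolipoprotein (0.957), Gimap8 (0.952) and Fyn, a kinase (0.950). Ces1d read 8.39 in tumour 1 and 6.25 in tumour 3 and was not detected in the others, as with Mrap. Spearman's coefficients for the 10 genes ran from 0.500 for Gimap8 to 0.881 for Orm1 and Shtn1. Without tumours 1 and 3, over 6 tumours, r was 0.770 for Shtn1 (detected on 5 of 8 arrays), 0.552 for Apoc1 (also on 5), 0.555 for Lrmp and -0.0471 for Gimap8 (both detected on 8). Adig, Orm1, Fsd2 and Slc17a6 were detected on 1 array, and Ces1d and Fyn on 2, so for these 6 genes most values are undetected and have no order.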

How the data were processed

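Total RNA of each tumour was labelled with biotin and hybridised to 1 bead array, per the labels' protocols, and GenomeStudio was used, per the submitters' processing notes, which state no version. The deposited intensity of each probe is linear and not normalized, and per the file headers each intensity comes with a detection p-value. The authors' normalized intensity (array medians 90.4 to 90.7) served as an alternative, and how it was made is not stated. The platform annotation gives 1 symbol to 23978 of 25697 probes, several to 0 and none to 1719. These were updated through RefSeq gene IDs (23962 matched).

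With R 4.3.3 and limma 3.58.1, intensities were background corrected by neqc (normal plus exponential model informed by the detection p-values, offset 16), quantile normalized and converted to log2. The filter kept probes whose detection p was under 0.05 on at least 1 array (15067, of which 14190 are named), with the probe of highest mean standing for a gene. The 7 resistant tumours were compared with the 1 control, and each tumour with the other 7, by lmFit and eBayes, two-sided, with Benjamini-Hochberg adjustment over 10461 genes and a threshold of 0.05. With 1 array on a side, the 6 residual degrees of freedom come from the other 7 arrays. An undetected side was set, per array, to the higher of its own signal and the lowest detected signal, and folds against it are given as "at least". The columns name no chip or position, so no batch could be tested.

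Named genes are all member probes, the first 4 measured genes of each other list, list genes that passed a test, and the 10 genes most like the members. Genes named beside a count of 5 or fewer, or only as highest in tumour 1, were chosen after their values were seen. So were the melanocyte markers and Nras. Members and lists were chosen with earlier results of these data known. The alternatives changed, 1 at a time, the probe rule, the variance model, the filter, the normalization and the background correction, took the authors' normalized table, or left out 1 resistant tumour.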

Additional observations from a re-analysis of the deposited data

Results flagged for a closer look

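Of 63 genes looked at among the members and the named genes, 18 had 1 resistant tumour whose distance from its nearest neighbour, as a share of the range of the 7, passed Dixon's 95% critical value. Chance flags about 1 in 20 groups, but this rate cannot be set against these counts: the members were chosen by their values in tumour 1, and Adig, Cpt1b, Acot11 and Pdgfra had passed the fit of 1 tumour against the others. The tumour was number 1 for 11 genes and number 6 for 5, and it was the highest for 16.

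The members Cidec, Cidea, Ucp1 and Mrap are among them, which restates how they were chosen. Tumour 1 was the highest, with Cidec at 6.19 (next 4.76), Cidea at 8.90 (next 5.00), Ucp1 at 7.15 (next 4.82) and Mrap at 8.56 (next 5.52). Except for Mrap in tumour 3, the other resistant tumours had no signal for these 4, so the gaps of Cidec, Cidea and Ucp1 reach down to undetected values. Tumour 1 was also far from the rest for Adig (7.06, next 5.08), Plin5 (6.75, next 5.58), Cox8b (10.62, next 7.01), Cpt1b (8.44, next 6.02) and Cfb (8.80, next 6.44), and for the muscle myosins Myh1 (8.46, next 6.15) and Myh4 (8.79, next 5.32). Tumour 6 was highest for Acot11 (10.43, next 6.67), Trp63 (5.25, next 4.79) and the casein gene Csn3 (6.51, next 4.88), and lowest for Pdgfra (9.79, next 12.29) and Krt8 (5.18, next 11.45). Tumour 7 was highest for Sfrp5 (5.44, next 5.00) and Acly (12.24, next 11.95). The gaps of Adig, Sfrp5, Trp63 and Csn3 also end on undetected values.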

How the results depend on the processing

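Of 497 recomputed values, 447 were alike, 42 moved and 8 lost a call. Alike means a count close to the main one, or a call kept in its direction. For a difference it means within the SD between tumours, whatever its sign. No called gene changed direction, but a change of sign was not scored for the member differences, and Lpl had one. No paired analysis was possible because the control is 1 tumour and its label carries no replicate number. Over all genes, 1 rose against the control (4 with no detection filter, 3 with a trended robust variance, 1 to 8 with a resistant tumour left out) and 22 fell (8 without background correction, 8 with the deposited values, 35 with no filter, 5 to 50 with a tumour left out). Among the 82 other adipocyte-related genes, the number that rose was 0 (0 to 1 with a tumour left out, Cavin1 passing without tumour 1, adjusted p = 0.0392), and the number that fell was 1 (0 without background correction, 0 with the deposited values, 0 to 1 with a tumour left out). With each tumour set apart, the control differed in 1 (0 without background correction, 0 with the deposited values, 0 to 2 with a tumour left out). Tumour 1 differed in 2 (4 without background correction and 4 with the deposited values, where Pi16 and Cox8b passed as well, 1 with no filter, 1 to 4 with a tumour left out) and tumour 6 in 3 (3 to 4 under other settings, 3 to 5 with a tumour left out). The cause of these shifts was not tested. The median member difference from the control was 0.38, with 0.34 to 0.40 over the other settings and 0.15 to 0.44 with a tumour left out. These are the values of Cidec, which was detected in tumour 1 alone. Lpl had a difference of 0.07, from -0.19 to 0.14 over the settings and from -0.39 to 0.42 with a tumour left out, so its sign is not settled. The step of tumour 1 over the median of the others was added as a result after seeing the data; with the deposited values it was 2.91 for Adipoq, 2.87 for Cidea, 2.54 for Mrap, 1.42 for Ucp1 and 0.93 for Cidec. Median scaling moved the median of all genes, resistant minus control, from -0.02 to -0.20. Values below the lowest detected signal, which include most member values outside tumours 1 and 3, have no order.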
